A study of Mus musculus with 9 samples.

Results

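Mediator and the Paf1 complex both work at RNA polymerase II, and their subunit mRNAs are described here in mouse metaphase II (MII) oocytes, the eggs released at ovulation. The genes were taken by name from the protein-coding rows of the deposited tables: every gene named Med followed by a digit, the kinase partners Cdk8, Cdk19 and Ccnc, and Ctr9, Paf1, Leo1, Cdc73, Rtf1 and Wdr61. This gave 39 genes out of 30153 in the joined tables, 33 of Mediator and 6 of the Paf1 complex. Med31 and Ctr9 had drawn attention because they differed in opposite directions between GFP High and GFP Low oocytes, so all values of that comparison are given as a description, and its p-values support nothing here.

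Mediator is a large assembly that carries signals from DNA-bound transcription factors to RNA polymerase II. Its tail contacts activators, its head and middle contact the polymerase, Med14 is the scaffold that joins them, and a separable kinase module built on Cdk8 or Cdk19 with cyclin C restrains or redirects it. The Paf1 complex travels with the elongating polymerase and promotes ubiquitylation of histone H2B and the histone methylation that follows. Fully grown oocytes are transcriptionally silent until the embryonic genome is activated, so the transcripts of an MII oocyte itself are stored maternal mRNAs. RNA of other cells in a pool, whose markers are given below, would be counted with them.

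All donors were 4-week-old females of mixed genetic background and of the genotype Sycp3CreERT2/+; Rosa26nT-nG/+. They carry an inducible Cre inserted at Sycp3, a gene of the meiotic chromosome axis, and a reporter that makes nuclear red fluorescent protein before, and nuclear GFP after, Cre recombination. They received 5 IU PMSG and, 48 h later, 5 IU hCG, and oocytes were collected 13 h after hCG, freed from cumulus cells by hyaluronidase and hand-sorted by fluorescence into the groups GFP High, GFP Low and RFP (n = 3 pools each). GFP High pools held 15 to 16 oocytes, GFP Low pools 49 to 57 and RFP pools 87 to 100. Pool size and reporter group therefore cannot be told apart.

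Library totals ran from 19381677 to 27746256 counts. GFP High libraries had 869 to 1081 eGFP counts, GFP Low libraries 282 to 662 and RFP libraries 0 to 16. Counts of the red reporter tdTomato were 0 to 2, 16 to 35 and 46 to 94 in the same order. GFP Low libraries therefore held RNA of both reporters. All 12 oocyte marker genes, among them the zona pellucida gene Zp3 and the growth factor Gdf9, averaged above 1 CPM (counts scaled to library size, edgeR's cpm unit with TMM), with a summed level of 10335 to 11866 CPM per library. Cumulus and granulosa markers (17 genes, 8 of them above 1 CPM on average) were summed per library. The sums were 111.9 to 214.6 CPM among GFP High, 143.0 to 157.0 among GFP Low and 135.2 to 200.4 among RFP libraries, ranges that overlap. Nr5a2 made up most of every sum, at 100.8 to 157.2 CPM. The overlap therefore says little about the other genes of the list. Tnfaip6, a cumulus matrix gene, reached 7.16 CPM (GFP High 1), 6.63 CPM (GFP Low 1) and 10.9 CPM (RFP 2), and at most 1.06 in the others. Vcan and Inhba of the same list were highest in the same libraries. They also stood at 7.45 and 2.51 CPM in RFP 1, against at most 1.84 and 0.72 in the remaining libraries. Ptx3 and Ptgs2, also on the list, stood at only 0.68 and 0.65 CPM in RFP 1. Whether the pools of a group share donors is not stated, so p-values measure only the spread between these libraries.

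A pair of the genes has annotated starts that lie close together, and the region is shown because the pair has a gene of each complex. Paf1, the subunit that names its complex (chromosome 7, 28392951 to 28399388, plus strand, GRCm38), and Med29, a head subunit (chromosome 7, 28386146 to 28392708, minus strand), are transcribed away from each other, and their annotated starts lie 243 bases apart. The RefSeq promoter window of Paf1 (GRCm38.p6, chr7:28392746-28393045, plus strand) runs from 250 bases before to 50 after the RefSeq start. That start lies downstream of the annotated start given above, from which the 243 bases are measured. The window covers most of the stretch between the annotated starts, without the bases next to the Med29 start. It is printed with each match to CCAAT in capitals.
Paf1: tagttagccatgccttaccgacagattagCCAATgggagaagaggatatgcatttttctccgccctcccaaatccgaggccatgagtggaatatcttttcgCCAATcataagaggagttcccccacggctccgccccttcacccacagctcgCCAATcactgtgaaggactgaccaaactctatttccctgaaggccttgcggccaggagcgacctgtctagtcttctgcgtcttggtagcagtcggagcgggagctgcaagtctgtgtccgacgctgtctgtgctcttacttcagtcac
The motifs searched on both strands were CCAAT, the letters bound by NF-Y, then GGGCGG, the GC box, then CACGTG, an E-box, and finally TATAAA, the TATA box, and none of them lies within another. They were chosen after the sequence was seen. The window holds 3 CCAAT matches and 2 GGGCGG matches, and neither of the other two. Of 32851 RefSeq windows of 300 bases, 37.4% hold CCAAT at least once and 3.37% at least 3 times. RefSeq windows were matched for 32 of the 39 genes (36 windows). Of these windows 36.1% hold CCAAT, and 66.7% hold GGGCGG against 35.7% of all windows. A match is a description of letters and not a binding site. The mRNA levels of the pair differed widely: Paf1 stood at 36.5 to 46.6 FPKM and Med29 at 3.18 to 9.17 FPKM. Med29 reached 0.115 of the Paf1 level (SD 0.0452 over 9 libraries, range 0.0682 to 0.223). Whether the stretch between the starts serves as promoter of either gene was not tested.

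In pooled oocytes, less of an mRNA in each cell and fewer cells that carry it cannot be told apart. The libraries were poly-A libraries, so a level counts mRNA captured by its poly-A tail. Tail length was not measured, so a level or a group difference need not be one of mRNA amount. Levels of different genes were compared on the deposited FPKM values, which are per kilobase of gene length. Of the 39 genes, 36 averaged at least 1 FPKM over the 9 libraries. The median of these 36 was 12.2 FPKM (10.4 over all 39), beside 7.73 FPKM for the 8918 protein-coding genes at 1 FPKM or more. The length used is that of all annotated exons together, and it equals the exon union of GENCODE M21 for each gene looked at below. It is 17613 bases for Cdc73, against 1046 for Med11, so the FPKM of a gene with long unused exons is understated.

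**Figure D1:**
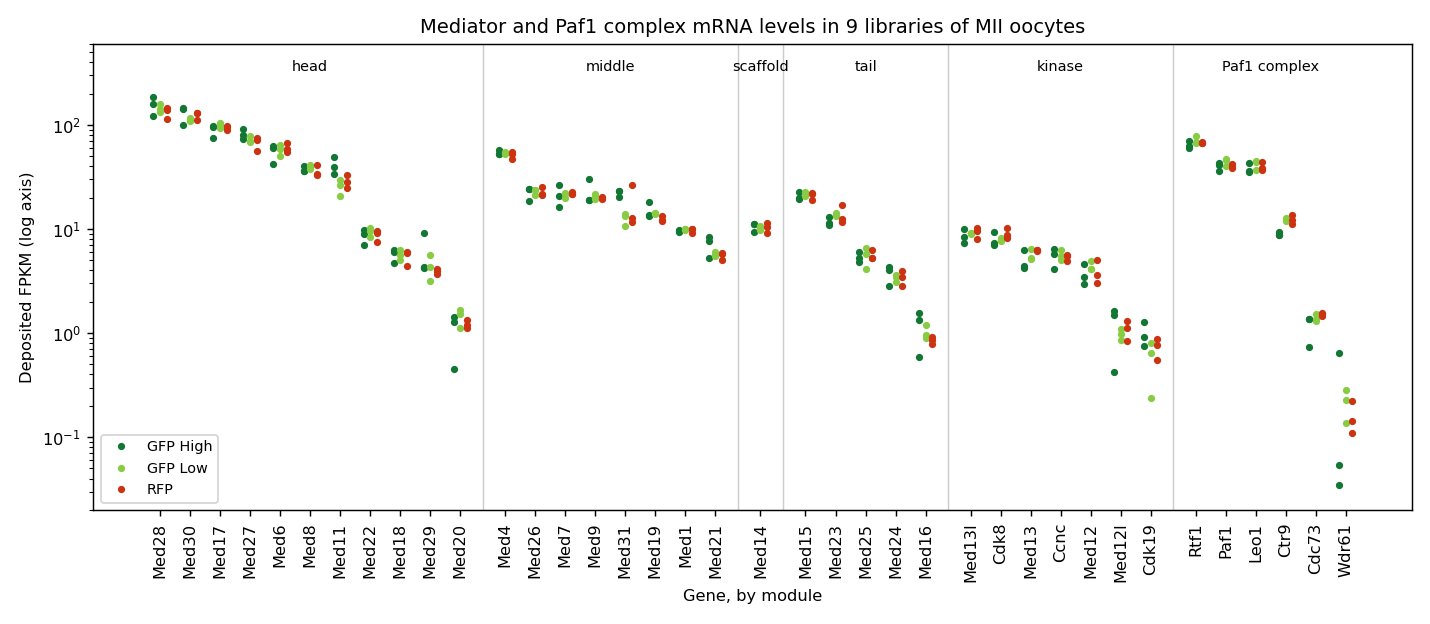
Deposited FPKM (log axis) of 38 Mediator and Paf1 complex genes in 9 libraries, grouped by module; each point is 1 library, coloured by reporter group, and Med10, listed at 0 in 5 libraries, is left out. The head spans from Med28 at 144.3 FPKM to Med20 at 1.24 on average, and the Paf1 complex from Rtf1 at 68.0 to Wdr61 at 0.207.

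As grouped here, the head module, the part that grips the polymerase, held the most abundant Mediator mRNAs. Not every scheme places Med27 to Med30 in the head, so this ranking depends on the scheme used. Med28 averaged 144.3 FPKM, from 114.5 in RFP 3 to 185.7 in GFP High 2. Med30 followed at 122.3 FPKM, Med17, a core subunit on which the head is built, at 94.7 and Med27 at 73.7. At the other end stood Med29 at 4.74 and Med20 at 1.24 FPKM, so the FPKM values of subunits of the same module spanned a wide range. The order of these genes depends on length: Med20 has 7324 exon bases and Med29 1281, and in CPM Med20 was the higher (9.17 against 6.12). Of the exon bases of Med20, 21.4% are shared with a gene on the opposite strand and 7% with one on the same strand, so its level is uncertain. Med28 and Med30 overlapped in their libraries (114.5 to 185.7 and 99.8 to 146.4 FPKM), so their order is not separated.

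In the middle module, Med4 averaged 53.2 FPKM with a range of only 47.5 to 57.6 over all libraries. Med1, the subunit bound by nuclear hormone receptors, averaged 9.69 FPKM (9.08 to 9.99). Med10 was counted 0, 0 and 2 times among replicates 1, 2 and 3 of GFP High, 2, 0 and 0 times for GFP Low and 5, 0 and 6 times for RFP. Of its exon bases, 92.8% are shared with Gm26819 on the opposite strand, which itself had at most 12 counts in any library. Reads on exons of both genes cannot be told apart without strand, so these counts give no level for Med10. Med14 averaged 10.4 FPKM, with 11.3, 11.2 and 9.42 among the GFP High libraries, 10.6, 10.5 and 9.71 among GFP Low and 10.5, 9.10 and 11.4 among RFP.

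The tail, which receives activators, ranged as grouped here from Med15 at 21.2 FPKM down to Med16 at 1.01. Med15, the target of SREBP and TGF-beta signalling in other cells, lay between 19.1 and 22.8 FPKM in every library. Med23, a target of ELK1, averaged 13.1 FPKM, Med25 5.49 and Med24 3.51.

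In the kinase module, the same member of each paralogous pair was the higher in all 9 libraries, by margins that differed between pairs. Cdk8 averaged 8.33 FPKM and its paralogue Cdk19 0.760, a ratio of Cdk19 to Cdk8 of 0.0922 (SD 0.0338, range 0.0287 to 0.136 over 9 libraries). Med12, which activates the kinase, averaged 4.00 FPKM against 1.08 for Med12l, a ratio of 0.273 (SD 0.0945, range 0.141 to 0.434). Med13, which links the module to the core, averaged 5.59 FPKM and was exceeded by Med13l at 9.01. The ratio of Med13l to Med13 was 1.63 (SD 0.191, range 1.26 to 1.91). Med13l was the higher of the pair in 9 of 9 libraries, and Cdk19 and Med12l were the higher of theirs in 0 of 9. Cyclin C (Ccnc), the partner of either kinase, averaged 5.50 FPKM. Over 45.9% of its transcript, Cdk8 has a pseudogene copy at 98.3% identity (Gm7107, 2.81 CPM on average), so reads from that stretch could be assigned either way or lost. How many were was not tested.

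In the Paf1 complex, Rtf1, the subunit that stimulates H2B ubiquitylation, averaged 68.0 FPKM, Paf1 41.7 and Leo1 40.2. Ctr9, the scaffold of the complex, averaged 11.2 FPKM and Cdc73 (parafibromin) 1.36. Wdr61, which the complex shares with the cytoplasmic Ski complex, had only 4 to 68 counts in a library (0.207 FPKM on average). Of its exon bases 33.9% are shared with Dnaja4 on the opposite strand, so its level is uncertain.

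Ctr9 (ENSMUSG00000005609, chromosome 7, 111028951 to 111056377, plus strand) was lower in GFP High than in either other group. Replicates 1, 2 and 3 of GFP High stood at 70.4, 70.3 and 74.5 CPM. Those of GFP Low stood at 100.9, 104.1 and 97.7 CPM, and those of RFP at 110.3, 97.8 and 92.1. Every GFP High library lay below every other library, while GFP Low and RFP overlapped. The log2 fold change was -0.48 (SE 0.11) in GFP High against GFP Low. Against RFP it was -0.46 in GFP High (SE 0.12, edgeR adjusted p = 0.997, unadjusted p = 0.00315) and 0.02 in GFP Low (SE 0.10, edgeR adjusted p = 1). The comparisons share libraries, so the value of GFP High against RFP is no second observation of the first. It did not pass the threshold over all genes tested.

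Med31 (ENSMUSG00000020801, chromosome 11, 72211724 to 72215592, minus strand), a small and highly conserved middle subunit, went the other way. Replicates 1, 2 and 3 of GFP High stood at 40.2, 40.4 and 35.5 CPM and those of GFP Low at 18.7, 23.6 and 24.7, so these groups did not overlap. The log2 fold change was 0.80 (SE 0.18). The RFP replicates, however, stood at 46.8, 22.2 and 20.9 CPM. RFP 1 lay above every GFP High library, and RFP 2 and RFP 3 within the range of GFP Low. Against RFP the log2 fold change was 0.39 in GFP High (SE 0.28, edgeR adjusted p = 0.997) and -0.42 in GFP Low (SE 0.26, edgeR adjusted p = 1). Without RFP 1 the first became 0.85 (edgeR adjusted p = 1) and the second changed sign to 0.053 (edgeR adjusted p = 1). The first value rests on the GFP High libraries from which Med31 was chosen and on leaving out the RFP library that went against them, so it is no independent observation. The summed cumulus markers of RFP 1 were 137.2 CPM, of which the nuclear receptor gene Nr5a2 took 108.3. The summed oviduct epithelium markers (5 genes, 1 of them above 1 CPM on average) were 12.4 CPM in RFP 1 and 3.30 to 10.6 in the other libraries. Among these genes Ovgp1, the oviduct glycoprotein, had at most 3 counts in every library. The keratin gene Krt18 stood at 1.86 CPM in RFP 1 and at most 0.22 in any other library. The rest of the list did not peak in RFP 1. Krt8 stood at 8.82 CPM there and at 9.94 in GFP High 3. Epcam stood at 1.60 CPM in RFP 1 and 2.20 in RFP 2, and Pax8 at 0.08 and 0.26. The part of the cumulus and oviduct markers in the level of Med31 was not tested. Exons of the antisense gene 4930563E22Rik cover 26.3% of Med31's exon bases, and that gene averaged 0.0172 CPM.

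**Figure D2:**
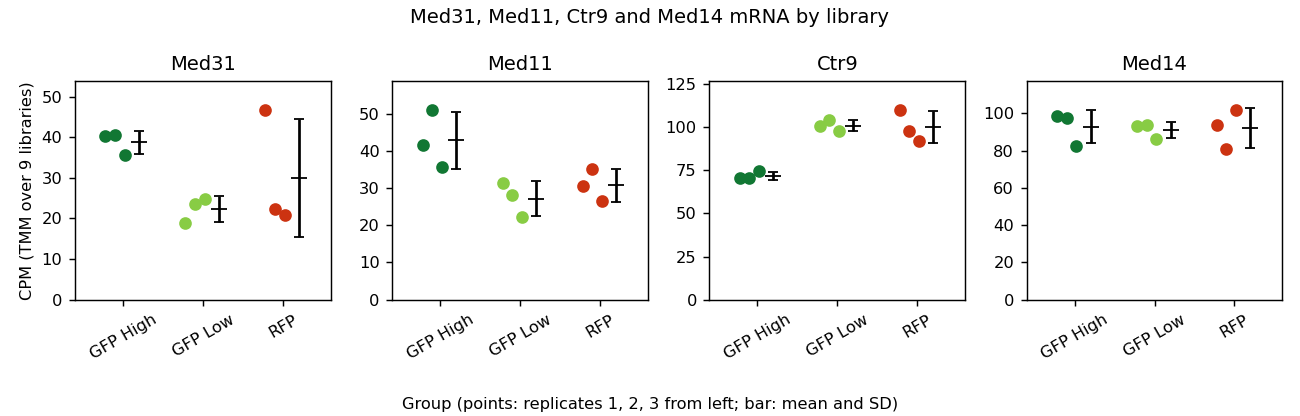
CPM of Med31, Med11, Ctr9 and the scaffold gene Med14 by reporter group; points are replicates 1, 2 and 3 from left to right, and the black bar is the mean with its SD (n = 3). Ctr9 lies lower in all GFP High libraries, Med31 is high in GFP High and in RFP 1, and the groups overlap for Med14.

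Med11 (ENSMUSG00000018923, chromosome 11, 70451919 to 70453727, plus strand), a small head subunit that pairs with Med22, also lay high in GFP High. GFP High replicates stood at 41.5, 51.1 and 35.8 CPM, GFP Low replicates at 31.3, 28.1 and 22.1 and RFP replicates at 30.5, 35.2 and 26.4. The lowest GFP High library, at 35.8 CPM, was just above the highest RFP library, at 35.2, so the groups were separate by a narrow gap. Against RFP the log2 fold change was 0.49 in GFP High (SE 0.19, edgeR adjusted p = 0.997, unadjusted p = 0.0254) and -0.17 in GFP Low (SE 0.16). Against GFP Low it was 0.66 in GFP High (SE 0.20). For its partner Med22 the mean was 31.0 ± 5.18 CPM with strong GFP, 34.3 ± 3.31 with weak GFP and 32.2 ± 3.91 among RFP pools (SD, n = 3).

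In the comparison of GFP High with RFP, eggs with strong GFP were set beside eggs sorted into the RFP group. Of 38 Mediator and Paf1 complex genes that passed the filter on low counts, 0 passed an adjusted p of 0.05 in edgeR's quasi-likelihood test, where 0.0135% of all 14829 genes did. At an unadjusted p under 0.05 there were 2, Ctr9 and Med11 (5.26% of the genes, beside 4.09% of all genes), and DESeq2 also called 0 at an adjusted p of 0.05. The groups did not overlap for 4 genes (10.5%), beside 12.1% of all genes tested. These were Med11 and Med29, higher in GFP High, and Ctr9 and Cdc73, lower. Each of these shares is near its background. The fitted change was above 0 for 19 genes and below 0 for 19, with a median of -0.0045 on the log2 scale, beside -0.0056 for all genes.

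Cdc73 stood at 24.2, 12.9 and 24.2 CPM in GFP High and at 26.1, 28.0 and 27.7 in RFP, and GFP High 2 alone was far below the rest. Its log2 fold change was -0.40 (SE 0.25). For the other Paf1 complex genes it was 0.62 for Wdr61 (SE 1.27), which rests on few counts, -0.08 for Rtf1 (SE 0.09), -0.03 for Paf1 (SE 0.11) and -0.07 for Leo1 (SE 0.12), each with an edgeR adjusted p of 0.997 or above. Med29 stood at 11.7, 5.47 and 5.46 CPM in GFP High against 5.21, 5.36 and 4.86 in RFP, and its mean rests on GFP High 1. Med27, a head subunit, stood at 245.0, 300.9 and 264.3 CPM with strong GFP and 240.1, 249.3 and 189.9 among RFP, which overlap. Its log2 fold change was 0.27 (SE 0.13), at an adjusted p of 0.997 in edgeR.

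The next comparison set eggs with weak GFP, GFP Low, beside RFP eggs. Again 0 of 38 genes passed an adjusted p of 0.05, where 0.0197% of all 15199 genes did, and 0 had an unadjusted p under 0.05, beside 2.62% of all genes. DESeq2 also called 0. The groups did not overlap for 1 gene (2.63%, beside 7.72% of all genes). This was Med19, a middle subunit, with 28.9 CPM in its lowest GFP Low library and 28.3 CPM in its highest RFP library (log2 fold change 0.17, SE 0.12). All 38 fitted changes were smaller than 0.5 on the log2 scale, from -0.42 for Med31 to 0.45 for Wdr61, with a median of 0.038 beside -0.0041 for all genes. The standard errors had a median of 0.11 and reached 0.61 for Wdr61.

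The kinase module in these comparisons followed no common direction. Cdk8 had the smallest p-value of the 38 genes in GFP Low against RFP, with 76.6, 78.7 and 82.5 CPM for GFP Low and 82.5, 87.7 and 103.0 for RFP. The fitted log2 difference was -0.20 (SE 0.11), at an adjusted p of 1 in edgeR, and the groups met at 82.5 CPM. In GFP High it was 92.4, 72.2 and 69.2 CPM (-0.21 against RFP, SE 0.15). Med13 had log2 fold changes of -0.33 in GFP High (SE 0.17) and -0.16 in GFP Low (SE 0.11) against RFP, and Med13l -0.13 (SE 0.15) and -0.03 (SE 0.10). Ccnc had 0.02 (SE 0.20) and 0.07 (SE 0.14), and Med12 -0.09 (SE 0.24) and 0.17 (SE 0.18). The weakly expressed paralogues varied between replicates: Med12l stood at 20.9, 5.35 and 19.3 CPM in GFP High, and Cdk19 at 4.73, 3.80 and 1.41 CPM in GFP Low. None of the 7 kinase genes passed the threshold in any comparison.

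**Figure D3:**
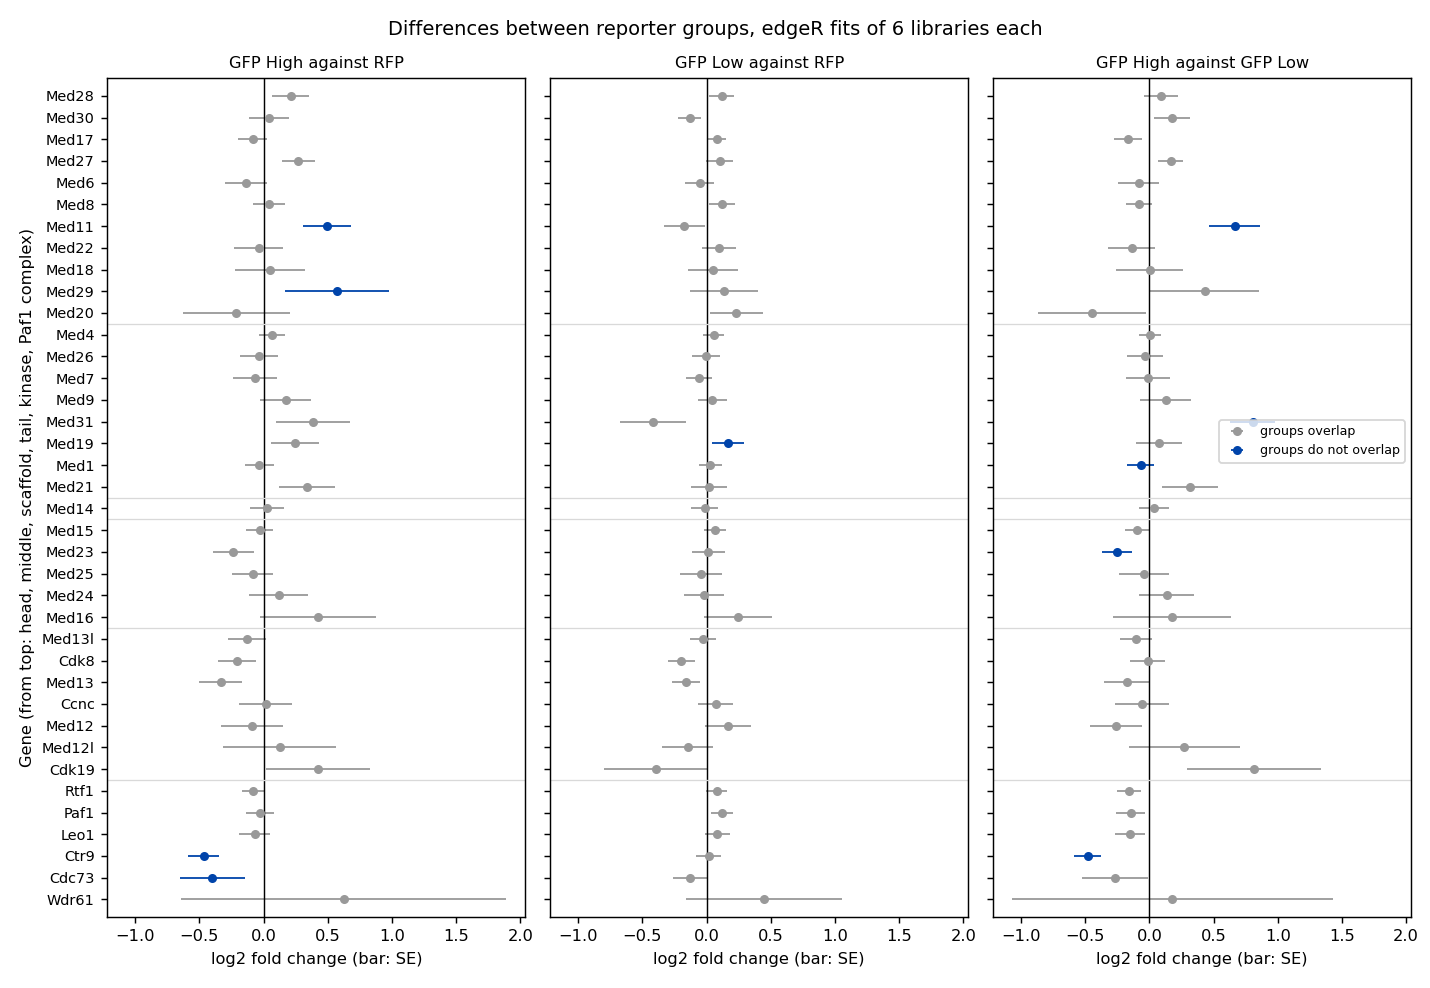
Log2 fold change of 38 genes in each comparison (point) with its standard error (bar), from edgeR fits of 6 libraries each, ordered by module; blue marks genes whose groups do not overlap in CPM. Most points lie within 0.5 of 0, and Wdr61, with 4 to 68 counts, has the widest bars.

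GFP High against GFP Low, the comparison that led to Med31 and Ctr9, is given as a description only. By the same rules 0 of the 38 genes passed an adjusted p of 0.05, where 0% of all 14785 genes did, DESeq2 called 0 as well, and 3 had an unadjusted p under 0.05 (7.89%, beside 3.77% of all genes). The groups did not overlap for 5 genes (13.2%, beside 11.7% of all genes). These counts include Med31 and Ctr9, which were chosen from the same values, so nothing is read from them. Med31 and Med11 were higher and Ctr9, Med1 and Med23 lower in GFP High. Med1 stood at 84.9, 83.2 and 81.4 CPM in GFP High against 85.6, 88.9 and 88.7 in GFP Low, a log2 fold change of only -0.07 (SE 0.10). Med23 stood at 86.3, 73.1 and 76.3 CPM in GFP High against 89.9 to 97.5 in GFP Low (log2 fold change -0.25, SE 0.11). In RFP it stood at 80.3, 84.5 and 115.6, overlapping both. The remaining Paf1 complex genes had log2 fold changes of -0.16 for Rtf1 (SE 0.09), -0.15 for Paf1 (SE 0.11), -0.15 for Leo1 (SE 0.12), -0.27 for Cdc73 (SE 0.26) and 0.18 for Wdr61 (SE 1.25). Cdk19 had a fitted value as large as Med31's, 0.81, but with an SE of 0.52 and overlapping groups. By module, as grouped here, the median was 0.0012 in the head, 0.04 in the middle and -0.04 in the tail. It was -0.06 in the kinase module and -0.16 in the Paf1 complex, beside -0.0048 for all genes.

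Replicates of GFP High, the smallest pools, spread more widely. The SD of log2 CPM over 3 replicates had a median over the 38 genes of 0.25 for GFP High, 0.13 for GFP Low and 0.14 for RFP. Over all 15857 genes passing the filter it was 0.45, 0.23 and 0.23. The spread was widest in GFP High for 23 of the 38 genes (60.5%), beside 68.1% of all genes. At 20 CPM or more, the medians were 0.23, 0.09 and 0.14 for 31 genes of the complexes and 0.19, 0.11 and 0.13 for 6063 genes of all kinds. Genes whose spread was not widest in GFP High included Ctr9 (SDs of 0.05, 0.05 and 0.13 in the same order) and Med1 (0.03, 0.03 and 0.08). For Med31 the wide group was RFP (0.65), against 0.11 for GFP High and 0.21 for GFP Low. Med31 and Ctr9 were chosen from GFP High against GFP Low, a choice that favours a small spread within these groups. Med1 was named after its values were seen, so nothing is read from these SDs.

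**Figure D4:**
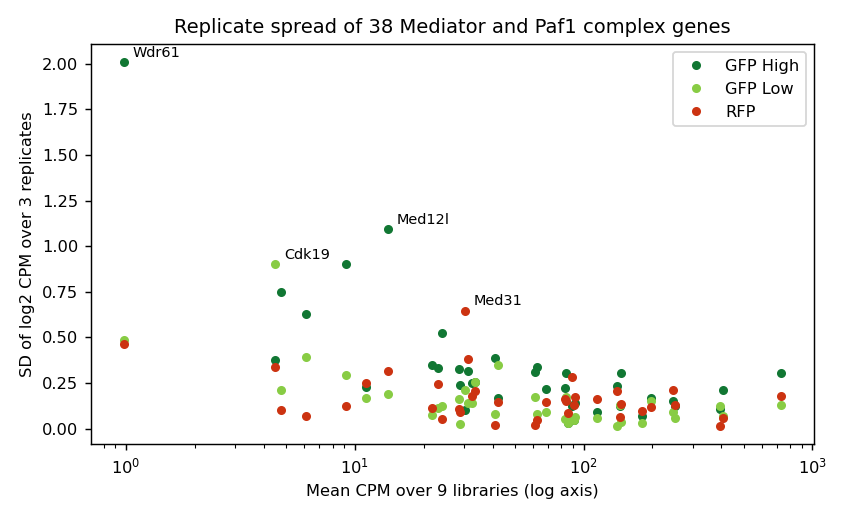
SD of log2 CPM over the 3 replicates of a group, against mean CPM over 9 libraries (log axis), for 38 genes; each gene has 1 point per group. The point of GFP High is the uppermost for 23 of the 38 genes, and Med31 in RFP, at 0.65, lies above every point of a more abundant gene.

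The machinery these complexes work with was examined as a list of 45 genes: the subunits of RNA polymerase II, pausing and elongation factors, the CDK-activating kinase, the H2B ubiquitylation enzymes and the Ski complex. Of these, 43 were tested in each comparison. At an adjusted p of 0.05 in edgeR 0 were higher and 0 lower in all 3 comparisons, and 0 had an unadjusted p under 0.05. Over all genes 0.0135%, 0.0197% and 0% passed the adjusted threshold for GFP High against RFP, GFP Low against RFP and between the GFP groups, and 4.09%, 2.62% and 3.77% the unadjusted one. The fitted changes were above 0 for 19 and below for 24 in GFP High against RFP, and above 0 for 24 and below for 19 in GFP Low against RFP. In GFP High against GFP Low they were above 0 for 15 and below for 28. The smallest p-values were those of Polr2g, a stalk subunit of the polymerase, in GFP High against RFP (log2 fold change 0.38, SE 0.18, edgeR adjusted p = 0.997) and of Aff4, a scaffold of the super elongation complex, in GFP Low against RFP (-0.27, SE 0.12, edgeR adjusted p = 1). The ubiquitin ligase genes Rnf20 and Rnf40, which act with the Paf1 complex on H2B, averaged 50.1 and 51.9 FPKM, and Polr2d, the other stalk subunit, 268.4 FPKM.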

How the data were processed

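Per the labels' protocols, 9 pools gave poly-A libraries read from both ends. The submitters' processing notes name fastp, HISAT2 2.0.5, featureCounts 1.5.0-p3, DESeq2 1.20.0 and the build mm10, without role. Each of 3 tables deposited by the authors holds raw counts per gene for 6 libraries, which entered all tests. The deposited FPKM (per kilobase and library size) served only to compare levels between genes. The deposited normalised signal, log2 fold changes and p-values of the authors were not used. Tables were joined by gene identifier, and 178 genes had missing counts set to 0. Annotation overlap came from GENCODE M21, near-identical transcripts from blastn at 95% identity or more.

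Each comparison used 6 libraries, filterByExpr, TMM and edgeR 4.0.16's quasi-likelihood test (R 4.3.3, defaults, no covariate), with Benjamini-Hochberg adjustment over all genes tested and a threshold of 0.05. Standard errors derive from the F statistic. CPM was scaled by TMM over 9 libraries. Log2 CPM used a prior count of 2. The fits were tested on simulated data: nearly all 4-fold but only part of the 2-fold changes were called, and the pass criterion was eased after this was seen. The simulation gave all genes and both groups the same replicate dispersion and changed only genes with many counts. Its recovery therefore need not hold for GFP High, whose replicates spread more widely, or for genes with few counts. Each fitted change of the 38 genes was under 2-fold, so 0 calls do not show that these genes did not differ. Counts carry no molecular identifiers, so depth covers counting error only. Alternatives were DESeq2 1.42.0, other scaling, no filter, all libraries in 1 fit, bias-adjusted deviances, the replicate block and leaving out each library.

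The genes, modules and lists were chosen with earlier results of these data known. Genes named were Med31, Ctr9, all kinase and Paf1 complex genes, Med14, the extremes of each module by FPKM, the 3 smallest p-values in each comparison with RFP and genes failing the filter. Med1, Med17, Med19, Med22, Med23, Med24, Med25 and Med29 were named after their values were seen. Placement of Med27 to Med30 in the head follows one of several schemes. Replicate numbers did not pair the libraries (correlation of deviations -0.113 to 0.116), so the block was not the main design.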

Additional observations from a re-analysis of the deposited data

How the results depend on the processing

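The count of Mediator and Paf1 complex genes past the threshold was 0 in each of the 3 comparisons under DESeq2, DESeq2 size factors, no filter, all 9 libraries in 1 fit, bias-adjusted deviances, the replicate block and each of the 6 fits that left out 1 library. The adjusted p-values themselves differed between methods. For Med31 and Ctr9 in GFP High against GFP Low, from which they were chosen, DESeq2 gave 0.0515 and edgeR 0.998. For Ctr9 in GFP High against RFP, DESeq2 gave 0.142 and edgeR 0.997. With the replicate block, which the labels' numbers do not justify as a pairing, the median log2 fold change was -0.03 (GFP High to RFP), 0.04 (GFP Low to RFP) and -0.04 (between the GFP groups). Leaving out 1 library moved that median from -0.046 to 0.036, from 0.0063 to 0.057 and from -0.089 to 0.0012, in the same order. The values of Med31 and Ctr9 in GFP High against GFP Low ran from 0.69 to 0.87 and from -0.51 to -0.47 over such fits. In GFP Low against RFP, Med31 ran from -0.62 to 0.053, changing sign without RFP 1, and Ctr9, whose value is close to 0, from -0.041 (without RFP 3) to 0.086 (without RFP 1), with -0.0063 without GFP Low 2. In GFP High against RFP, Med31 ran from 0.18 (without RFP 3) to 0.85 (without RFP 1). The ratios within the paralogous pairs stayed within 1 SD without the GFP High libraries. Raw counts per kilobase give the same ratios by construction, so that alternative tested nothing. At the smallest library a gene under about 1 CPM, such as Wdr61, rests on few reads, and differences there were not detectable at this depth.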
